A study of Mus musculus with 4 samples.

Results

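Monocyte-primed progenitor cells were taken here as the bone marrow cells with 2 or more of the 4 genes Csf1r, Ccr2, F13a1 and Ms4a6c detected. Granule transcripts also had to stay under set limits. The rule kept cells with at least 500 UMIs (unique molecular identifiers, 1 per captured transcript) and at most 20% of UMIs from mitochondrial genes. It then required Elane, Mpo, Prtn3 and Ctsg together, and S100a8, S100a9, Ngp, Camp and Ltf together, to hold under 1% of a cell's UMIs each. It found 900 cells among 15421 kept cells of 4 libraries. The cells were thus chosen by their own receptor and granule values, which are given below as a description, and the same holds for any comparison of these cells with the cells the rule left out.

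The cells came from C57BL/6 mice and were sorted for Sca1 and cKit and against lineage markers, the LSK gate that holds stem and multipotent progenitor cells. Transcripts were counted by inDrop, in which single cells are captured in droplets with barcoded beads. The 4 groups had 1 library each: mice with chronic myeloid leukaemia (CML) given imatinib, wild-type (WT) mice given imatinib, untreated CML mice and untreated WT mice. Imatinib blocks the tyrosine kinases ABL and KIT and the platelet-derived growth factor receptors. Its targets as listed here include Csf1r, a gene of the rule. Mice received 400 mg/kg orally every other day, over 30 days according to 1 label and over 4 weeks according to another. The labels give neither the age of the mice, nor how many were pooled, nor how the leukaemia was produced. With 1 library per group no difference has a replicate check and no test was made. All intervals are 95% intervals and cover counting error only. They are exact, apart from those for the gap in a ratio between sets of cells, which use a normal approximation.

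Monocytes arise from multipotent progenitors through stages that switch on Irf8 and Spi1, the transcription factors of the monocyte and dendritic branch. These stages also gain Csf1r, the receptor for macrophage colony-stimulating factor, and Ccr2, the chemokine receptor by which monocytes leave the marrow. F13a1 encodes the A chain of coagulation factor XIII, and Ms4a6c a membrane protein of the MS4A family found on myeloid cells. Ly86, or MD-1, partners the toll-like receptor relative Cd180. Ly86 and Irf8 took no part in the rule. They were chosen as markers of these cells with earlier results of these data known, so their levels describe the cells.

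Proximal promoters are shown for Cybb, a called gene, and F13a1, a rule gene, which hold motifs of myeloid factors, and for Ly86 and Irf8, which hold none of those searched. Of 13 marker genes looked up in the RefSeq promoter table, 12 had a window. The windows run from 250 bases before to 50 after the RefSeq start on GRCm38.p6, 5′ to 3′ along the gene, so they cover upstream sequence and the beginning of the first exon. Capitals mark matches, on either strand, to GAGGAA (the core bound by PU.1, the product of Spi1), the interferon response element (GAAA, any 2 bases, GAAA) or the composite of PU.1 with an interferon regulatory factor (GGAA, any 2 bases, GAAA). The Cybb window lies at chrX:9469275-9469574 on the minus strand, that of F13a1 at chr13:37050195-37050494 on the minus strand, that of Ly86 at chr13:37345095-37345394 on the plus strand, and that of Irf8 at chr8:120736108-120736407 on the plus strand.
Cybb: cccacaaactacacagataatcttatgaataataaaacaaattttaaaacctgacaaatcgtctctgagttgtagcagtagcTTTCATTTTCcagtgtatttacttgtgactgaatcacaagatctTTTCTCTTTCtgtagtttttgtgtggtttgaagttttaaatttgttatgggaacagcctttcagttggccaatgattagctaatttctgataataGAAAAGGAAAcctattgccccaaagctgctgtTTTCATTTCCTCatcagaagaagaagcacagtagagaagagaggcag
F13a1: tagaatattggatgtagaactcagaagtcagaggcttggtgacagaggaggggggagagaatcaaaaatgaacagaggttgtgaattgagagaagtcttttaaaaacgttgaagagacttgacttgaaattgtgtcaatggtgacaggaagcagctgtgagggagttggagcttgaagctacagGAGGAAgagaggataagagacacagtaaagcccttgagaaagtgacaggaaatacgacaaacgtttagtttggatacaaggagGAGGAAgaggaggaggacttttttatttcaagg
Ly86: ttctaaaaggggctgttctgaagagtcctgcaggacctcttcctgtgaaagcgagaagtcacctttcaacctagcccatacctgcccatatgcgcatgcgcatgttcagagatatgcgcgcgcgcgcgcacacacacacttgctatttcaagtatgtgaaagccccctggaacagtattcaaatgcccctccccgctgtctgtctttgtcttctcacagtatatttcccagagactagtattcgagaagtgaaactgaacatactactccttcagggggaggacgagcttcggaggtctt
Irf8: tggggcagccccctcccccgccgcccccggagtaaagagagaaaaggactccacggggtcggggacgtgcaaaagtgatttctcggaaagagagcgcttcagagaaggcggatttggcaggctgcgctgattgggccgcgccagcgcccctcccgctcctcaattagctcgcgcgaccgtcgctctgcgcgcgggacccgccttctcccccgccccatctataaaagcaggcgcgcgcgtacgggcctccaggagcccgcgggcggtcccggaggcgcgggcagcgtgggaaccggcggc
The Cybb window held the interferon response element 3 times, the composite 1 time and GAGGAA 1 time, the last overlapping the composite. The F13a1 window held GAGGAA 2 times, and a second F13a1 window, at chr13:37049164-37049463 and not shown, 1 time. Of the 12 genes with a window, Clec12a, Ly6c2 and Tfec also held GAGGAA. The interferon response element and the composite were in Cybb alone. Among all 32851 windows of this length, 28.3% held GAGGAA, 3.44% the interferon response element and 2.72% the composite. A missing match says only that these letters are not in the window.

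Before the results, 4 features of the libraries bear on them. The imatinib libraries were shallower: these cells had a median of 1562.5 UMIs in CML imatinib and 1693 in WT imatinib, against 8476 in CML untreated and 6391 in WT untreated, and the untreated files hold no cell below 1001 UMIs. Of the kept cells, 27.7% in CML imatinib and 28.3% in WT imatinib passed both granule limits, against 92.6% in CML untreated and 90.8% in WT untreated. The WT imatinib and WT untreated files share 1135 cell names, 20.4% and 39.6% of their distinct names. Cells of the same name were no more alike than cells of neighbouring names, with median correlations of -0.0009 and -0.0017. Xist, which coats and silences the inactive X of females, was at 134.5 CPM (UMIs per 1000000) in the CML imatinib monocyte-primed cells, 8.56 in WT imatinib, 1683 in CML untreated and 1.46 in WT untreated, so the sex of the mice cannot be told apart from group. The CML imatinib value rests on 27 UMIs in 4 cells, of which 5 and 6 lie in the 2 cells with erythroid genes described below.

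The share of monocyte-primed cells among all kept cells was lower in both imatinib libraries at full depth. They were 92 of 5167 kept cells in CML imatinib (1.78%, interval 1.44 to 2.18) and 121 of 4189 in WT imatinib (2.89%, 2.40 to 3.44). In CML untreated they were 359 of 3032 (11.8%, 10.7 to 13.04) and in WT untreated 328 of 3033 (10.8%, 9.73 to 11.97). The imatinib shares lay far below the untreated ones, and within each treatment CML and WT were closer. Detection of 2 genes depends on depth. Among cells of 1000 to 3000 UMIs the shares were 2.28% (1.73 to 2.95) in CML imatinib, 4.00% (3.19 to 4.94) in WT imatinib, 4.61% (3.28 to 6.27) in CML untreated and 4.10% (3.03 to 5.42) in WT untreated. In that range only CML imatinib had an interval clear of the other libraries, and WT imatinib and WT untreated overlapped. Depth still differed within it, with medians of 1667.5 UMIs in CML imatinib and 1735.5 in WT imatinib, against 2253 in CML untreated and 2071 in WT untreated. After each cell was thinned to 500 UMIs, 26, 33, 20 and 46 cells remained in the same order of libraries, or 0.503%, 0.788%, 0.660% and 1.52%. There WT untreated stood highest, with an interval of 1.11 to 2.02, and those of the other 3 libraries overlapped one another. Since most imatinib cells failed the granule limits, the share among cells that passed them is a further measure: 6.43% in CML imatinib, 10.2% in WT imatinib, 12.8% in CML untreated and 11.9% in WT untreated. With every cell thinned to 500 UMIs that share ran the other way, at 1.85% (1.21 to 2.70) in CML imatinib and 2.81% (1.94 to 3.93) in WT imatinib, against 0.733% (0.448 to 1.13) in CML untreated and 1.69% (1.24 to 2.25) in WT untreated. The direction of the share thus depends on depth and on the cells counted.

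**Figure D1:**
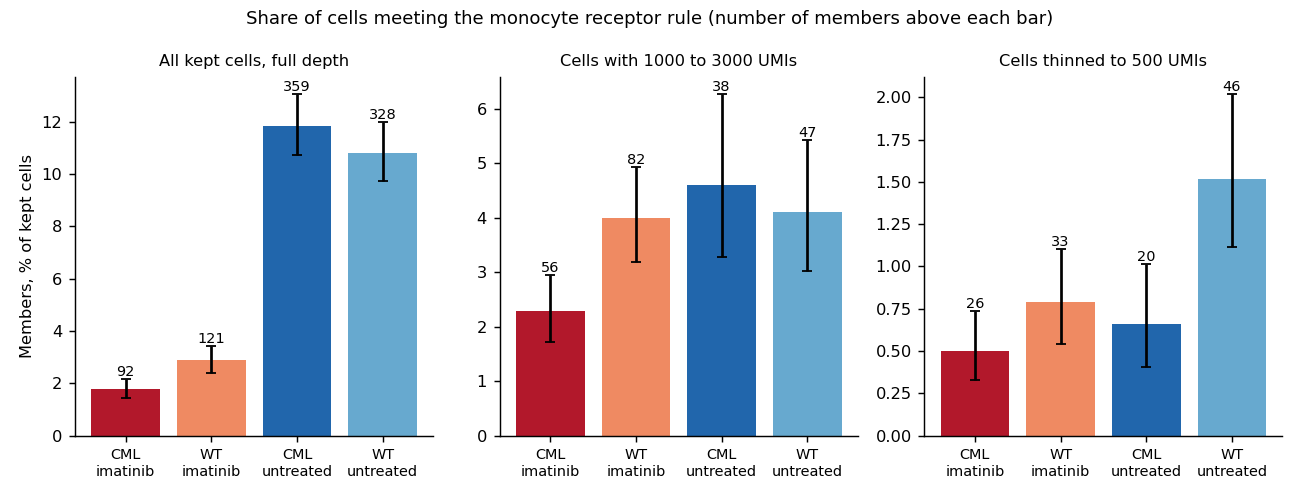
Monocyte-primed cells as a percentage of kept cells in each library, at full depth, among cells of 1000 to 3000 UMIs and after thinning every cell to 500 UMIs. Bars are shares, lines exact binomial 95% intervals, and numbers above the bars count the cells. The gap of 1.78% and 2.89% in the imatinib libraries against 11.8% and 10.8% in the untreated ones at full depth is not seen between the WT libraries (4.00% and 4.10%) among cells of 1000 to 3000 UMIs, whose depth still differs in part.

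The 4 receptor genes were not detected equally. Csf1r was found in 23.9% of these cells in CML imatinib, 27.3% in WT imatinib, 40.9% in CML untreated and 57.3% in WT untreated. Ms4a6c was found in 67.4%, 72.7%, 87.7% and 91.8% in the same order, and was the most often detected of the 4 in every library. Ccr2 ranged between 59.8% in CML imatinib and 76.9% in CML untreated, and F13a1 between 54.0% in CML untreated and 69.4% in WT imatinib. Csf1r was thus the least often detected of the 4 genes in each library. All 4 genes were detected together in 1, 7, 56 and 81 cells, and exactly 2 of them in 78, 89, 201 and 139. The pair of F13a1 with Ms4a6c alone was the commonest pattern in CML imatinib (23 cells) and WT imatinib (28 cells). In CML untreated the pair of Ccr2 with Ms4a6c led (94 cells), and in WT untreated the full set of 4 led (81 cells).

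Free RNA can put a stray UMI into any droplet, so detection in cells of other classes is given as background. The monocyte-primed cells were chosen by these genes, so their higher shares follow from the rule and say nothing about free RNA. In cells thinned to 500 UMIs, Csf1r was found in 15.2% of monocyte-primed cells in CML imatinib, 9.09% in WT imatinib, 4.74% in CML untreated and 12.5% in WT untreated. It was found in 0 of 191, 16, 189 and 137 erythroid cells (at least 3 of 9 erythroid genes), which allows shares of up to 1.91%, 20.6%, 1.93% and 2.66%. Their median depths were 3899, 1228, 8127 and 5659 UMIs. F13a1 was in 27.2%, 33.9%, 8.08% and 15.2% of monocyte-primed cells and in 0, 0, 0.529% and 0 of those erythroid cells, the second being 0 of 16 cells. Mast and basophil cells (at least 3 of their genes) carried F13a1 in 4.07% (2.05 to 7.17) in CML imatinib. Ccr2 was less specific: T cells (at least 2 T cell genes) carried it in 14.0% of 150 cells in CML untreated and 7.63% of 118 cells in WT untreated, with median depths of 2674 and 2121 UMIs. Monocyte-primed cells carried Ccr2 in 18.7% and 18.6% in those libraries.

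Ly86 and Irf8, the genes outside the rule, were both higher in the monocyte-primed cells of each library than in the other low-granule cells, those under both granule limits with fewer than 2 receptor genes. Ly86 was at 194 CPM in CML imatinib, 295 in WT imatinib, 151 in CML untreated and 386 in WT untreated, against 19.9, 63.0, 12.1 and 24.0 CPM in the other cells. Irf8 stood at 364, 526, 206 and 600.5 CPM, libraries in that order, against 72.5, 156, 40.6 and 88.4 CPM. Both were among the 27 of 3738 genes (0.722%) at least 2-fold higher in all 4 libraries, in a contrast that the rule itself set. In the monocyte-primed cells the levels of Ly86 and Irf8 were lowest in CML untreated and highest in WT untreated. Cell by cell the picture was mixed. Neither gene was detected in 54.3% of monocyte-primed cells in CML imatinib, 43.8% in WT imatinib, 36.8% in CML untreated and 16.2% in WT untreated, against 90.0%, 87.5%, 85.7% and 83.2% of the other low-granule cells. Depth runs with this in part: in CML imatinib the monocyte-primed cells with neither gene had a median of 1286.5 UMIs and those with both 2218. The other low-granule cells were shallower than the monocyte-primed cells in every library. Their medians were 890 UMIs in CML imatinib, 870 in WT imatinib, 4484 in CML untreated and 3290 in WT untreated. In CML imatinib the 2 deepest cells meeting the rule, with 16354 and 12768 UMIs, each carried 7 of the 9 erythroid genes and no UMI of Ly86 or Irf8. They hold 14.5% of all UMIs of the CML imatinib set, and values that rest on them are given with and without them.

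In the untreated libraries both genes were higher the more receptor genes were detected. In WT untreated cells with 0, 1, 2, 3 and 4 of the receptors, Ly86 stood at 10.7, 63.3, 189, 438 and 570 CPM. In CML untreated it stood at 6.59, 26.0, 99.3, 132 and 281 CPM. Irf8 ran from 52.1 CPM with none to 830 with all 4 in WT untreated, and from 27.4 to 329 in CML untreated. The cells just outside the threshold, with 1 receptor gene, were therefore intermediate, and those with 4 were highest. Gata2, a stem and mast cell transcription factor, ran the other way, at 298, 180, 39.1, 44.9 and 18.5 CPM in WT untreated and 279, 144, 55.0, 17.0 and 16.8 in CML untreated. In WT imatinib Ly86 stood at 45.4, 122, 263 and 450 CPM for 0 to 3 receptors and at 127 CPM in the 7 cells with 4, which hold 3 Ly86 UMIs. At the granule limit the cells just inside, with 0.5 to 1% of granule UMIs, and those just outside, with 1 to 2%, had similar Ly86. The values were 272 and 203 CPM in CML imatinib, 302 and 270 in WT imatinib, 147 and 171 in CML untreated, and 368 and 330 in WT untreated. Cells that carry 2 receptor genes but failed a granule limit numbered 318, 484, 115 and 177. In the imatinib libraries most receptor-positive cells thus lay outside the rule. Under the limit, Elane, Mpo, Prtn3 and Ctsg together still held more of the UMIs in monocyte-primed cells than in other low-granule cells. Their median shares were 0.610% against 0.188% in CML imatinib and 0.602% against 0.238% in WT imatinib. In CML untreated they were 0.454% against 0.030%, and in WT untreated 0.395% against 0.027%.

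**Figure D2:**
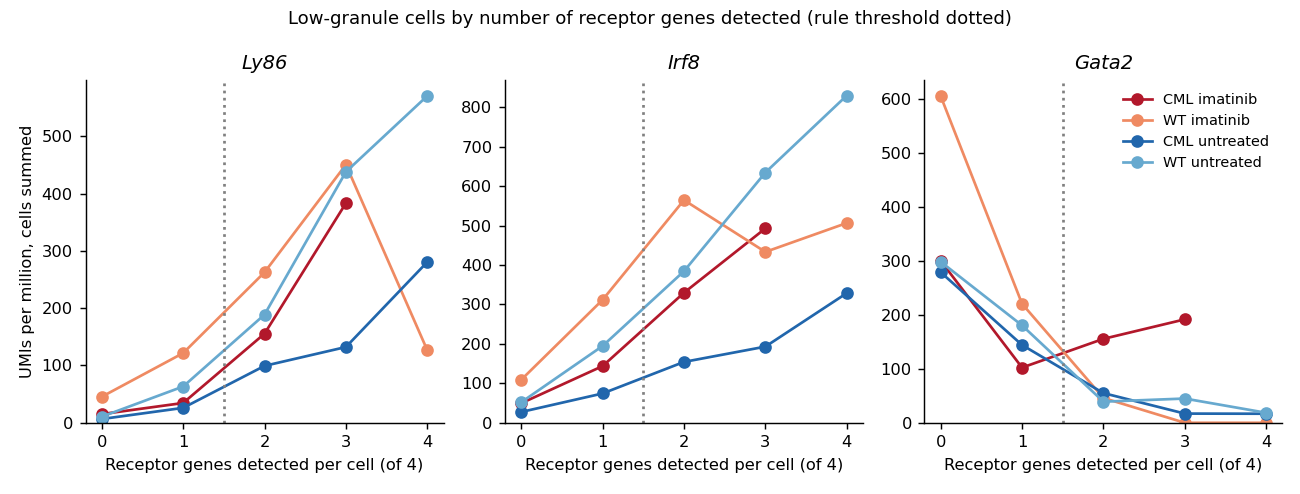
Levels of Ly86, Irf8 and Gata2 (CPM, cells of a class summed) in low-granule cells by how many of the 4 receptor genes were detected, 1 line per library; the dotted line marks the rule's threshold and classes under 5 cells are left out. In WT untreated cells Ly86 climbs over 10.7, 63.3, 189, 438 and 570 CPM while Gata2 drops to 18.5 CPM with all 4 receptors.

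Among 3738 genes with a mean of at least 50 CPM, 27 (0.722%) were at least 2-fold higher in monocyte-primed cells than in other low-granule cells in all 4 libraries and 39 (1.04%) were lower. The median log2 ratio over all genes was 0.06. This contrast is the rule's own, so the genes describe the cells. After Ly86 (median log2 ratio over the libraries 3.38) the leading genes were Tifab (3.34), a TRAF-binding regulator of innate signalling, Mpeg1 (2.49), the pore-forming perforin-2 of macrophages, and Ly6c2 (2.44), the surface antigen of inflammatory monocytes. Ly6c2 has near-identical neighbours, so its reads may be shared. Cybb (2.43), the catalytic subunit of the phagocyte oxidase, Hp (2.41), haptoglobin, Irf8 (2.31) and Lcn2 (2.09), the siderophore-binding lipocalin, came next. Tfec (2.01), a transcription factor of the MiT family in macrophages, and Unc93b1 (1.78), which escorts endosomal toll-like receptors, were also called. Mpeg1 was at 149.5 CPM in CML imatinib, 188 in WT imatinib, 65.5 in CML untreated and 215 in WT untreated, against 26.3, 49.0, 10.6 and 21.5 in the other cells. Set against all other kept cells, granule-rich ones included, Lcn2 turned to -0.42 while Ly86 stayed at 2.33 and Irf8 at 1.69.

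By role, 3 of 8 measured monocyte transcription factors were called higher, with a list median of 0.87. They were Irf8, Tfec and Cebpb (1.31), a C/EBP factor of macrophage genes. Spi1 had a median of 0.91 and a range over libraries of 0.48 to 1.62, and Zeb2, a repressor of other fates in monocytes, 0.57. Of 23 measured monocyte effectors 6 were called higher (median 1.21), and of 9 monocyte receptors none (median 0.98). Clec12a, an inhibitory lectin of myeloid cells, missed the call because WT imatinib had a ratio of 0.28, with 419 CPM in monocyte-primed cells and 345 in the others.

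Several erythroid, mast cell and stem cell genes were lower. Of 8 erythroid genes 6 were called lower (median -3.65), of 8 mast and basophil genes 3 (-3.71), and of 4 stem cell genes 2 (-1.87). None of 5 lymphoid-primed genes was called (0.09), and 1 of 3 neutrophil genes was higher (1.85). Of 8 granulocyte-monocyte progenitor genes outside the rule 1 was called higher (0.87). Hlf, a stem cell transcription factor, had 4.98 CPM in CML imatinib, 21.4 in WT imatinib, 30.7 in CML untreated and 23.9 in WT untreated, against 30.0, 82.2, 118 and 100.05 in other low-granule cells. Kit, one of the sorted antigens, was at 84.7, 51.3, 100.3 and 91.8 CPM in monocyte-primed cells and at 127, 242, 167.5 and 150 in the others. It was lower in each library, by a median of -0.72. Ly6a, which encodes Sca1, was at 84.7, 94.1, 35.3 and 52.7 CPM against 25.3, 49.0, 122 and 259: it was higher than in the other cells under imatinib and lower in the untreated libraries. Plasma cell genes led the lower side, with Jchain at -5.64 and Igkc at -5.18, though 1 WT untreated cell that meets the rule holds 2334 of its group's 2726 Igkc UMIs.

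Dendritic genes did not separate these cells: 0 of 3 measured genes of that list were called, with a median of 0.10, and the 13 dendritic markers summed to 364 CPM in CML imatinib, 252 in WT imatinib, 345 in CML untreated and 462 in WT untreated. The plasmacytoid marker Siglech had 2, 0, 3 and 1 UMIs. The 13 tissue macrophage markers summed to 54.8, 98.4, 26.9 and 25.4 CPM, the 11 T cell markers to 29.9, 4.28, 34.5 and 30.8, and the 6 natural killer cell markers to 0, 8.56, 5.63 and 6.35. The 15 neutrophil genes summed to 2317, 1472, 177 and 107 CPM and so were higher in both imatinib libraries. The other low-granule cells had the same pattern, at 633, 680, 81.6 and 74.9 CPM. At least 1 UMI of the 5 neutrophil genes of the rule was present in 35, 22, 6 and 2 of the monocyte-primed cells.

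**Figure D3:**
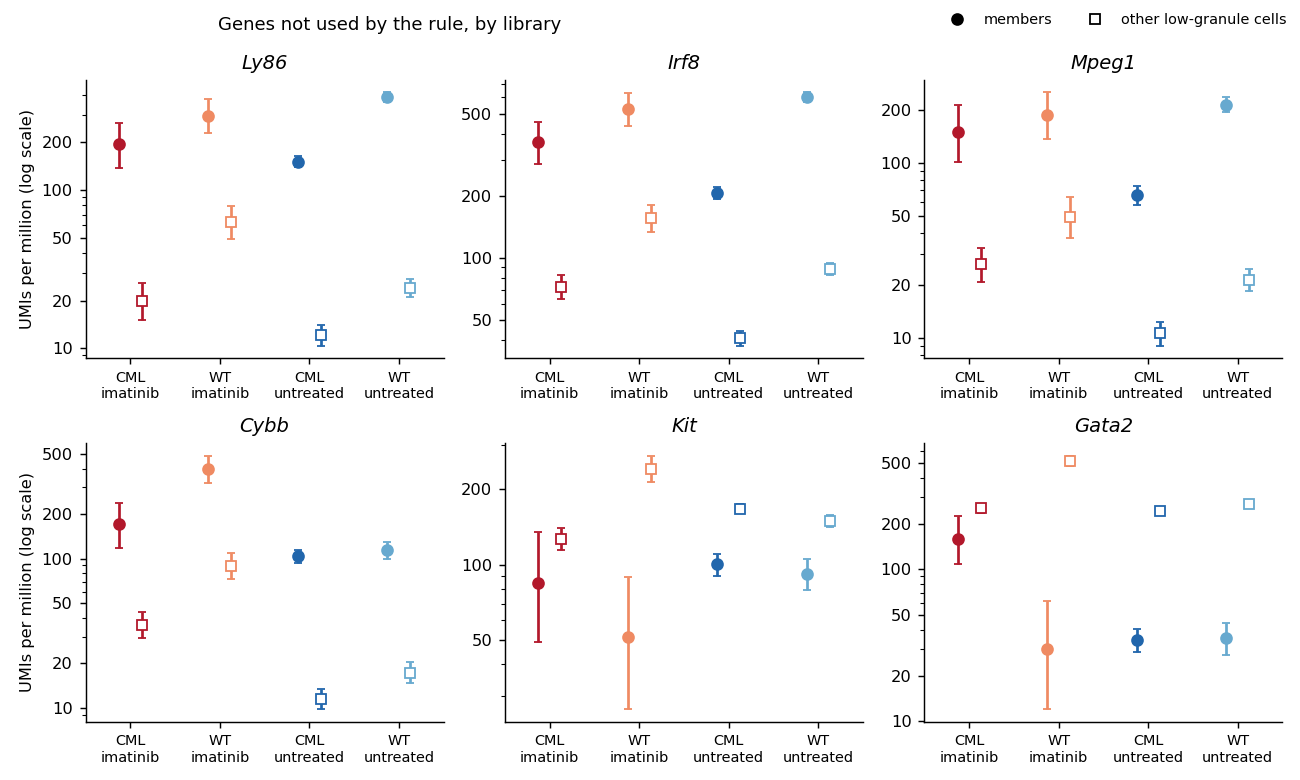
Levels of 6 genes that the rule did not use, in CPM on a log axis, with exact Poisson 95% intervals, in monocyte-primed cells (filled circles, labelled members) and other low-granule cells (open squares) of each library. Ly86, Irf8, Mpeg1 and Cybb are higher in the monocyte-primed cells of every library, while Kit and Gata2 are lower, Gata2 in CML imatinib by the least (159 against 252 CPM).

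Cycling genes were compared after thinning. At least 2 UMIs from the G2 and M phase list were found in 38.0% of monocyte-primed cells in CML imatinib, 52.1% in WT imatinib, 34.5% in CML untreated and 39.9% in WT untreated. In the other low-granule cells the shares were 37.8%, 32.7%, 25.1% and 23.3%. The share was higher in monocyte-primed cells of 3 libraries and equal within counting error in CML imatinib. Without thinning the shares were 68.5%, 76.0%, 94.2% and 85.4%, highest in the deeper libraries.

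The comparison of CML with WT before treatment concerned 2020 genes that reached 100 CPM and 20 UMIs in the higher library. Of these, 23 (1.14%) were at least 2-fold higher in CML and 25 (1.24%) lower, and the median of all genes was 0.04. Among the genes of the other low-granule cells 0.879% were higher and 0.414% lower. List counts, in this and the later comparisons of libraries, use only genes that pass that floor in the higher library. They therefore support no direction. Several monocyte genes stood out on the lower side. Of 6 measured monocyte transcription factors, though, 1 (Irf8) fell and 0 rose, with a median of -0.02. Irf8 was at 206 CPM in CML untreated and 600.5 in WT untreated (log2 ratio -1.54, interval -1.67 to -1.41). Ly86 was at 151 and 386 CPM (-1.35, -1.51 to -1.20), and Mpeg1 at 65.5 and 215 CPM (-1.72, -1.95 to -1.49). These 3 genes fell in CML by more than 2-fold, and remained lower in every setting tried. Irf8 lay between -1.25 with cells chosen after thinning and -2.67 among cells of 1000 to 3000 UMIs. The difference held at each number of receptor genes: with 2, 3 and 4 detected, Ly86 was at 99.3, 132 and 281 CPM in CML untreated against 189, 438 and 570 in WT untreated. It was also lower in CML in the other low-granule cells, by -0.99 for Ly86, -1.12 for Irf8 and -1.02 for Mpeg1.

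Further monocyte genes fell with them. Tyrobp and Fcer1g, adaptors that carry signals of Fc and other activating receptors, were at 60.9 and 116 CPM in CML untreated against 163 and 275 in WT untreated (-1.42 and -1.25). S100a6, a calcium-binding protein, was at 70.6 against 174 CPM (-1.30), Psap, the precursor of the saposins, at 354 against 761 (-1.1), and the lysosomal protease Ctss at 67.8 against 144.5 (-1.09). The ratios of the other low-granule cells were nearer 0, at -0.58 for Tyrobp, -0.43 for Fcer1g, -0.34 for S100a6 and -0.19 for Psap. The gap between the 2 cell sets was largest for S100a6 (-0.96, interval -1.20 to -0.72) among these 4 genes. Of 16 measured monocyte effectors 6 fell and 1 rose, with a median of -0.52, against a median of -0.25 and no call among 10 in the other cells. The list holds F13a1 of the rule, which fell by 1.14 on the log2 scale. Of 7 monocyte receptors 3 fell, among them Csf1r of the rule, at 109 CPM in CML untreated and 221 in WT untreated. Ccr2 differed little, at 347 and 386 CPM (-0.15), and Cybb likewise, at 104 and 113 CPM (-0.13, -0.36 to 0.11). Ctsc, the dipeptidase that activates granule proteases, was the effector that rose, to 457 CPM in CML untreated against 221 in WT untreated (1.05, 0.90 to 1.20). None of 11 granulocyte-monocyte progenitor genes passed 2-fold (median 0.22), in a list that holds the 4 granule genes limited by the rule. Ms4a3 of that list was at 386 CPM in CML untreated and 222 in WT untreated.

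Among the genes that rose in untreated CML were the chaperones Hspa1b, at 3288 CPM in CML untreated and 916 in WT untreated (1.84), Hspa1a, at 973 and 397 (1.29), and Hsph1, at 509 and 154 (1.72). Hspa1a and Hspa1b are near-identical and share reads. The other low-granule cells showed this more, at 4.56 for Hspa1b and 3.89 for Hspa1a, so the ratio in monocyte-primed cells was smaller by 2.71 (interval -2.82 to -2.61) and 2.60 (-2.76 to -2.44) on the log2 scale. With cells chosen after thinning but summed at full depth, the Hspa1a ratio was -0.06. Those were 20 cells in CML untreated and 46 in WT untreated, with median depths of 9779 and 4691 UMIs. Of 12 immediate early genes, those that growth factor and stress signals switch on within minutes, 3 rose: Fosb (1.35), Dusp1 (1.15) and Klf2 (1.1). In the cells chosen after thinning Dusp1 was at -0.26 and Fosb at 0.35. Fos, at 932 CPM in CML untreated and 574 in WT untreated, stayed under 2-fold. These stress and early genes moved opposite to the monocyte genes that fell in the same 2 libraries, and their part in that result was not tested. Ifitm1, an interferon-induced membrane protein, rose to 983 CPM in CML untreated against 350 in WT untreated (1.49), Gatm, an enzyme of creatine synthesis, to 428 against 152 (1.49), and the lactate transporter Slc16a1 to 109 against 39.6 (1.46). Ifitm1 and Gatm were higher in the other cells too, by 0.72 and 0.77.

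**Figure D4:**
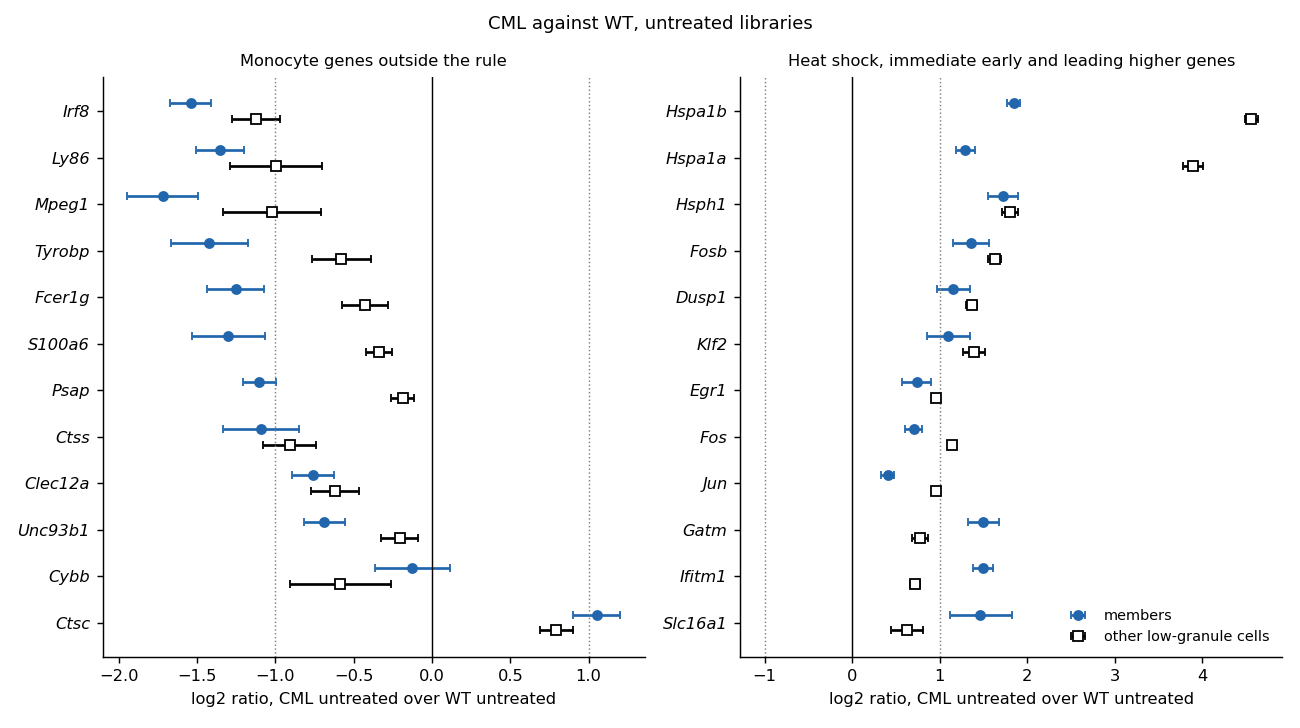
Log2 ratios of CML untreated over WT untreated in monocyte-primed cells (filled circles, labelled members) and other low-granule cells (open squares), with exact 95% intervals for counting error; dotted lines mark 2-fold. Irf8, Ly86, Mpeg1, Tyrobp, Fcer1g, S100a6, Psap and Ctss lie beyond 2-fold lower in monocyte-primed cells, while Hspa1b reaches 1.84 there and 4.56 in the other cells.

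Plasma cell transcripts also differed: Igkc was at 78.5 CPM in CML untreated and 1331 in WT untreated. As 1 WT untreated cell holds most of these UMIs and 643 of the 669 Jchain UMIs, the WT untreated value rests mostly on that cell.

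Imatinib was compared with no treatment separately in CML and in WT mice, with no shared library. In CML, 374 of 2409 genes (15.5%) were at least 2-fold higher under imatinib and 323 (13.4%) lower. Without the cells carrying 3 or more erythroid genes the CML counts were 288 and 294. In WT, 216 of 2229 (9.69%) were higher and 155 (6.95%) lower. Lower calls led in both genotypes under 3 other settings. With cells chosen after thinning, 48 were higher and 474 lower in CML and 81 and 389 in WT. With 3 or more receptor genes the counts were 96 and 563 in CML and 129 and 254 in WT. With granule limits of 0.5% they were 203 and 528 in CML and 125 and 281 in WT. These settings left 26, 14 and 33 cells in CML imatinib, and a higher call needs 20 UMIs in the imatinib library. The counts therefore support no direction. In CML lower calls also led without cells carrying neutrophil UMIs (255 and 354) or the deepest and marker-bearing cells (230 and 279). They led too with the mean of single-cell CPM (290 and 322) and a floor of 200 CPM (122 and 133). Called shares in the other low-granule cells were 17.3% higher and 12.9% lower in CML, and 6.93% and 3.35% in WT. Of the monocyte-primed cells' higher genes 81 were shared, 21.7% of the CML list and 37.5% of the WT list, and of the lower genes 60, 18.6% and 38.7%. These counts are far larger than between untreated libraries, and the imatinib sums are small: 200689 UMIs in CML imatinib and 233726 in WT imatinib, against 3909531 in CML untreated and 2048297 in WT untreated. Under TMM scaling the all-gene median of the CML comparison was -0.12, against -0.01, with 325 higher and 393 lower.

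Several genes of differentiated monocytes were higher under imatinib in both genotypes, in these cells under the granule limits. Lyz2, lysozyme, was at 543 CPM in CML imatinib against 29.4 in CML untreated (4.21, 3.82 to 4.60) and at 552 in WT imatinib against 33.7 in WT untreated (4.03, 3.60 to 4.48). Lgals3, galectin-3, was at 189 against 3.33 CPM in CML (5.83) and at 398 against 21.5 in WT (4.21). Fn1, fibronectin, rose by 4.11 in CML and 3.88 in WT, and Ly6c2 by 3.0 and 2.78. All of these exceeded 4-fold in either genotype, while Ly86 and Irf8 stayed within 2-fold of untreated. Ly86 was at 194 CPM in CML imatinib against 151 in CML untreated (0.36, -0.14 to 0.83), and at 295 in WT imatinib against 386 in WT untreated (-0.39, -0.76 to -0.03). Irf8 had ratios of 0.82 in CML and -0.19 in WT. Among cells of 1000 to 3000 UMIs Irf8 passed 2-fold in CML (1.38), and Ly86 fell beyond it in WT (-1.1).

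Of 23 measured monocyte effectors, F13a1 of the rule among them, 15 rose in CML and 15 in WT, with medians of 1.26 and 1.27. None fell, but genes such as Lyz2 and Lgals3 counted as measured only through their imatinib level, so the counts support no direction. In the other low-granule cells the medians were -0.05 (1 of 11 higher, 1 lower) and 0.48 (2 of 13 higher). Besides those above, S100a4, a motility-linked calcium-binding protein, rose by 3.94 in CML and 3.58 in WT, S100a6 by 2.42 and 1.62, and Psap by 1.21 and 1.1. Crip1, a LIM-domain protein, rose by 1.1 in CML and 1.67 in WT, where the other cells had -1.01 and 0.28. Some effectors were called in 1 genotype. Ctsc was at 483 CPM in CML imatinib against 457 in CML untreated (0.08), but at 1023 in WT imatinib against 221 in WT untreated (2.21). Cybb had ratios of 0.71 in CML and 1.81 in WT. Among receptors, Fcer1g was at 503 against 116 CPM in CML (2.12) and at 376.5 against 275 in WT (0.45). Of the CML imatinib Fcer1g UMIs, 48.5% lay in 3 cells. Fcgr3, a low-affinity IgG receptor, rose by 1.82 in CML and 2.04 in WT, and Itgb2, the beta2 integrin, by 2.47 and 1.52. Among cells of 1000 to 3000 UMIs the WT ratio of Itgb2 was -0.29.

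Most of these cells gave no Lyz2 UMI. Lyz2 was detected in 22.8% of monocyte-primed cells in CML imatinib and 33.9% in WT imatinib, against 25.6% in CML untreated and 17.1% in WT untreated, whose cells were deeper. In CML imatinib 3 cells held 52.3% of the Lyz2 UMIs, and in WT imatinib 19.4%. After thinning to 500 UMIs, Lyz2 was found in 10.9% in CML imatinib, 16.5% in WT imatinib, 1.67% in CML untreated and 1.52% in WT untreated. Erythroid cells carried it in 1.05%, 6.25%, 0.529% and 0.730%, the second of these being 1 of 16 cells. Among cells of 1000 to 3000 UMIs the ratio was 5.96 in CML and 4.92 in WT. Lyz2 also varied with the granule limit. Cells just inside, with 0.5 to 1% of granule UMIs, had 470 CPM in CML imatinib and 269 in WT imatinib. Receptor-positive cells just outside, with 1 to 2%, had 101 and 115 CPM. In CML untreated the values were 25.5 inside and 45.5 outside, and in WT untreated 44.8 and 39.3.

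Neutrophil genes moved with the monocyte genes. S100a8, which the rule limits, had 130 UMIs in CML imatinib against 3 in CML untreated (9.72, 8.14 to 12.02), and 54 in WT imatinib against 0 in WT untreated, at least 158-fold. The chitinase-like Chil3, of monocytes and neutrophils, had 49 UMIs in CML imatinib against 1 in CML untreated, and 78 in WT imatinib against 1 in WT untreated. With 1 UMI in each untreated library these ratios are loosely bounded, at 9.90 (7.35 to 15.2) and 9.42 (6.90 to 14.7). After thinning S100a8 was found in 14.1% of monocyte-primed cells in CML imatinib and 7.44% in WT imatinib, and in 22.2% and 7.05% of mast and basophil cells, whose median depths were 1399 and 1309 UMIs. Other low-granule cells carried it in 10.1% and 4.13%, and erythroid cells in 3.66% in CML imatinib (1.49 to 7.41, against 7.74 to 22.95 for the monocyte-primed cells) and in 0 of 16 in WT imatinib. The background thus differed between cell types. Without the cells carrying any UMI of the 5 neutrophil genes, a setting added after the data were seen, Lyz2 was at 4.39 in CML and 3.61 in WT, Fn1 at 3.69 and 3.78, and Lgals3 at 6.08 and 3.90.

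Immediate early genes were lower under imatinib. Fos was at 84.7 CPM in CML imatinib against 932 in CML untreated (-3.46, -4.24 to -2.78), and at 124 in WT imatinib against 574 in WT untreated (-2.21, -2.79 to -1.68). Egr1 was at 59.8 against 320 CPM in CML (-2.42) and at 17.1 against 192 in WT (-3.49). Zfp36, an mRNA decay factor, fell by 2.67 in CML and 2.21 in WT, and Jun by 2.09 and 2.33. Of 12 measured genes of the list 11 fell in CML (median -1.99) and of 10 in WT 9 fell (median -1.51). In the other low-granule cells 13 of 13 fell in CML (-3.08) and 10 of 13 in WT (-1.47). The fall was thus shared with the other cells, and for Fos in CML the 2 cell sets differed by 0.07 (-0.62 to 0.77). Nfkbia, the inhibitor of NF-kB that its own pathway induces, fell by 1.36 and 1.01. Depth differs between the same libraries. Among cells of 1000 to 3000 UMIs the Fos ratio was -3.76 in CML and -2.60 in WT.

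Of the receptors of early progenitors, Flt3 was lower in both genotypes and others in WT. Flt3, the receptor of lymphoid and dendritic progenitors, had 7 UMIs in CML imatinib (34.9 CPM) against 218 CPM in CML untreated (-2.64, -3.96 to -1.59). It had 3 UMIs in WT imatinib (12.8 CPM) against 272 CPM in WT untreated (-4.41, -6.69 to -2.85). Cd34 was at 189 against 327 CPM in CML (-0.79, under 2-fold) and at 158 against 474 in WT (-1.58). Kit, a target of imatinib, differed by less than 2-fold, with -0.24 (-1.04 to 0.45) in CML and -0.84 (-1.82 to 0.00) in WT. In WT all 4 measured progenitor receptors fell (median -1.42), against 1 of 7 in the other cells (-0.17). In CML 1 of 5 fell (-0.79), against 6 of 7 in the other cells (-1.48). Ccnd2, a D cyclin, fell by 1.13 in CML and 1.97 in WT, and Satb1, a chromatin organiser of lymphoid priming, by 1.04 and 1.57. Abl1 itself was at 110 CPM in CML imatinib and 87.2 in CML untreated (0.33), and at 34.2 in WT imatinib, from 8 UMIs, and 103.5 in WT untreated (-1.60).

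**Figure D5:**
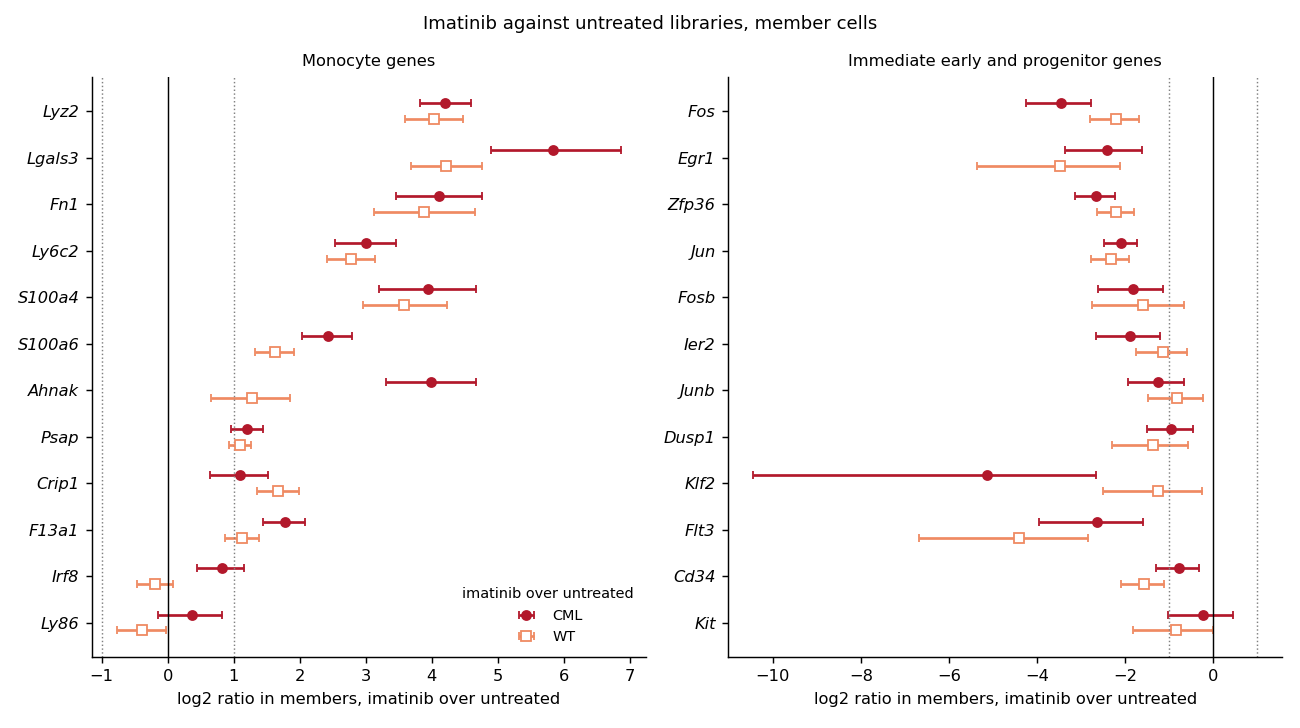
Log2 ratios of imatinib over untreated libraries in monocyte-primed cells of CML (filled circles) and WT (open squares) mice, with exact 95% intervals for counting error; dotted lines mark 2-fold. Lyz2, Lgals3, Fn1, Ly6c2 and S100a4 exceed 2.5 in both genotypes, Irf8 and Ly86 stay within 2-fold, and Fos, Egr1, Zfp36, Jun and Flt3 lie below -2.

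Under imatinib, CML and WT cells were compared over 2361 genes, of which 244 (10.3%) were at least 2-fold higher in CML and 198 (8.39%) lower. Among the genes of the other low-granule cells 11.7% were higher and 10.7% lower. Without the erythroid cells the counts in monocyte-primed cells were 157 and 172. Ly86 (194 CPM in CML imatinib, 295 in WT imatinib) and Irf8 (364 and 526) were under 2-fold apart, at -0.60 (-1.21 to -0.02) and -0.53 (-0.97 to -0.10). Lyz2 was level, at 543 and 552 CPM. Of 23 monocyte effectors 5 fell in CML and none rose (median -0.64). They were Cybb (-1.23), Ctsc (-1.08), Lgals3 (-1.07), Crip1 (-1.05) and Cyba (-1.05), the partner of Cybb in the oxidase. In the other low-granule cells the list was as low, with 6 of 13 called lower, 1 higher and a median of -0.86. Cybb turned to 0.63 with cells chosen after thinning.

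Of 12 G2 and M phase genes 5 fell in CML (median -0.61), among them Cdk1, at 110 CPM in CML imatinib and 355 in WT imatinib (-1.70, -2.44 to -1.0). Ccnb1, the cyclin that partners it, was at 74.7 and 218 CPM (-1.55). The list ran the other way in the other low-granule cells, with 4 of 14 genes higher and a median of 0.61. Erythroid, mast cell and some stem cell genes were higher in the CML imatinib cells, and rest on few cells. Without the 2 erythroid cells Car2 was at 40.8 CPM there, against 812 with them. Cpa3, a mast cell protease, had 48 UMIs in 10 cells in CML imatinib against 5 UMIs in 2 cells in WT imatinib (3.48, and 3.71 without the erythroid cells), and 3 cells held 36 of the 48. Gata2 was at 159 CPM in CML imatinib, from 8 cells of which 3 held 71.9% of its UMIs, and 30.0 in WT imatinib (2.41). The basophil protease Prss34 had 37 UMIs in CML imatinib, 36 of them in 1 cell.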

How the data were processed

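Single-cell transcripts of 4 inDrop libraries, 1 per group, were read from the deposited signal tables of genes by cells, which hold values scaled per cell. Per the submitters' processing notes Partek 8.0, Bowtie 1.1.1 and GRCm38 (mm10) were used; their settings are not given in the sources used here. Each deposited signal value was divided by the smallest nonzero value of its cell, which gave whole numbers (within 0.02) for 100% of the values, taken as UMIs. Cells were read by position, as the header rows hold 1 name more than there are columns. Of 32265 genes, 30443 symbols were found in GENCODE vM21.

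UMIs were summed over the cells of a set and given as CPM. Between libraries a gene was called at 2-fold when its higher library had 100 CPM and 20 UMIs or more. Against other low-granule cells it was called at 2-fold (CPM + 1) in the same direction in all 4 libraries with a mean of at least 50 CPM. With 4 libraries the smallest exact two-sided p of a sign-flip test is 0.125, so none was run. Ratios have exact conditional binomial 95% intervals, levels exact Poisson and shares exact Clopper-Pearson intervals. Gaps in a ratio between the monocyte-primed and other low-granule cells have normal-approximation intervals, which are rough at low counts. Fold changes against 0 UMIs use a floor of 3 counts per library. Genes were named as the leading calls of each comparison and as members of 35 gene lists. The members and lists were chosen with earlier results of these data known, and some further genes of the lists were named after their values were seen. A gene of a list counted as measured where it passed the floor in the higher library, so list counts describe and do not support a direction. No doublet caller was run; leaving out the deepest 5% of cells and marker-bearing cells was an alternative. Thinning drew 500 UMIs from each cell. Shares, detection and cycling after thinning were read from the thinned UMIs. For ratios and called genes thinning only chose the cells, whose full UMIs were then summed, so depth was not made equal. The calling steps were tested on simulated data. Python 3.11.15, NumPy 2.4.6, SciPy 1.17.1, pandas 2.3.3, matplotlib 3.10.9, R 4.3.3 and edgeR 4.0.16 (TMM scaling only) were used.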

Additional observations from a re-analysis of the deposited data

Results flagged for a closer look

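Car2, carbonic anhydrase 2 of red cells, moved in opposite directions under imatinib. In CML it had 163 UMIs under imatinib and 414 untreated, or 812 against 106 CPM (log2 ratio 2.94). In WT it had 2 UMIs under imatinib and 205 untreated (-3.55). The difference between genotypes was not tested. Without the monocyte-primed cells carrying 3 or more erythroid genes, the CML ratio was -0.88, from 7 UMIs in 6 cells, and the WT ratio -3.36.

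Trem3, an activating receptor of myeloid cells, had 10 UMIs in CML imatinib and 509 in CML untreated, or 49.8 against 130.2 CPM (-1.39). It had 31 UMIs in WT imatinib and 133 in WT untreated, or 133 against 64.9 CPM (1.03). This difference was not tested either, and without the erythroid cells the ratios were -1.16 and 1.02.

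Cells under 500 UMIs lay outside the rule and occur in the imatinib files. In CML imatinib 9 of 1965 such cells met the rest of the rule, with 1 Ly86 and 3 Irf8 UMIs among 3688. In WT imatinib 3 did, with 3 Ly86 and 2 Irf8 UMIs among 1257.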

How the results depend on the processing

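Every alternative was run, 2 of them added after the data were seen. No paired analysis was possible because each group has 1 library. Of 7498 alternative values of named genes, 6411 stayed within the counting interval, or the range over libraries, of the value given. Where that interval is wide, this asks little. A further 1064 moved outside it, and 23 values of genes called at 2-fold changed sign. Sign changes of uncalled genes were not counted apart and lie within the other counts. TMM scaling moved none. The cause of these changes was not tested. The share of monocyte-primed cells, in CML imatinib, WT imatinib, CML untreated and WT untreated, was 0.503%, 0.788%, 0.660% and 1.52% after thinning, 2.28%, 4.00%, 4.61% and 4.10% at 1000 to 3000 UMIs, 0.271%, 0.764%, 5.21% and 6.23% with 3 or more receptor genes, and 0.639%, 1.17%, 6.43% and 6.59% with granule limits of 0.5%. A minimum of 1000 UMIs gave 2.27% in CML imatinib and 3.45% in WT imatinib. Leaving out the deepest 5% and marker-bearing cells gave 7.85% in CML untreated and 6.28% in WT untreated, and leaving out cells with neutrophil UMIs (added) gave 1.1% in CML imatinib and 2.36% in WT imatinib.

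Called genes numbered 48 for CML against WT untreated, 697 for imatinib in CML, 371 for imatinib in WT, 442 for CML against WT under imatinib and 66 against the other cells. With no floor the first 4 counts were 3054, 5075, 3124 and 2900, and with 200 CPM they were 29, 255, 150 and 106. For CML against WT untreated, cells chosen after thinning gave 459, 3 or more receptors 76 and the depth window 249. For CML against WT under imatinib these settings gave 86, 217 and 256, and leaving out the deepest cells 292. The depth window gave 434 for imatinib in CML. Against the other cells a mean floor of 10 CPM gave 187, one of 200 CPM 16, and all other kept cells 17.

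The sign changes given here are those of called genes. With cells chosen after thinning, signs changed for Hspa1a (-0.060) and Dusp1 (-0.26) in CML against WT untreated. Under imatinib in CML they changed for Runx2 (0.042) and Ube2c (0.63). Under imatinib in WT they changed for Hsph1 (0.50), Uhrf1 (-0.77), Aurka (-0.052) and Nusap1 (0.27). In CML against WT under imatinib thinning turned S100a9 (-0.18), Cybb (0.63), Hsph1 (-0.54), Ifi47 (-0.37) and Aurka (0.95), granule limits of 0.5% turned Ube2g1 (1.09), S100a8 (-0.91), Dusp1 (-0.76) and Ifi47 (-1.91), and 3 or more receptors turned Hsph1 (-1.29). That setting also turned Hoxa9 (-0.019) under imatinib in CML. The depth window turned Car1 (-2.01) under imatinib in CML and Itgb2 (-0.29) in WT. Leaving out the deepest cells turned Igha (0.17) under imatinib in WT, and setting all other kept cells as the comparison turned Lcn2 (-0.42). The sums of the imatinib libraries, 200689 and 233726 UMIs, limit what can be seen there: 0 UMIs allow up to 14.9 CPM in CML imatinib and 12.8 in WT imatinib.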
